A study of Drosophila melanogaster with 2 samples.

Results

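The Odd-skipped family of *Drosophila melanogaster* is made up of 4 zinc finger genes, odd (odd skipped), drm (drumstick), sob (sister of odd and bowl) and bowl (brother of odd with entrails limited), out of the 13968 protein-coding genes annotated on the main chromosome arms. The genes were chosen by family membership, with results of these data known, and the regions given here were selected from measured values, the deposited peak lists. A region belonged to a gene when its summit, the position of its highest signal, had a start site of that gene as the nearest protein-coding one. By this rule the 4 genes held 95 of 150585 pooled candidate regions and 2 of 1495 pooled thresholded peaks. All values of these regions are therefore a description, with no test.

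Chromatin of whole embryos aged 0 to 24 hours was immunoprecipitated with an anti-GFP antibody and sequenced. The embryos came from the transgenic strain ham-GFP, which makes the zinc finger protein Ham (hamlet) as a fusion with eGFP. There was a single group of 2 biological replicates, both from this strain, with no other genotype, treatment or stage, and control libraries were not analysed here. Whole embryos of all these ages mix every tissue and stage, so a site bound in few cells and a site bound weakly in many cannot be told apart. Replicate 1 had 101890 candidate regions and 516 thresholded peaks, and replicate 2 had 136956 and 1050.

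Odd-skipped proteins carry zinc fingers of the C2H2 type. odd is a pair-rule gene, a class of genes that divides the early embryo into segments, and its product is a repressor. drm and bowl act in one pathway, in which Drm binds the protein Lines and so relieves the block that Lines puts on Bowl. This pathway patterns the hindgut, the foregut and the dorsal epidermis of the embryo, and odd, drm, sob and bowl take part in forming the joints of the leg. Ham belongs to the PRDM family of zinc finger proteins and is known for its part in sensory neuron fates.

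The 4 genes lie on the left arm of chromosome 2 in the dm6 genome build. drm (FBgn0024244) runs from 3539247 to 3548423 on the plus strand and has 2 start sites. sob (FBgn0004892) runs from 3578013 to 3580769 on the minus strand, and odd (FBgn0002985) from 3604224 to 3606756, also on the minus strand, each with 1 start site. The stretch of 29589 bp between drm and sob holds 1 short protein-coding gene, CG43815, and the 23454 bp between sob and odd hold none, only the non-coding genes lncRNA:TS2 and lncRNA:CR43823. bowl (FBgn0004893) runs from 3771700 to 3784121 on the plus strand, with 4 start sites, and lies 164943 bp beyond odd with 32 protein-coding genes in between.

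The sequences around the highest pooled region of each gene are shown because they set the 2 thresholded peaks, of bowl and sob, beside the regions of odd and drm that did not pass. Each is the 101 bp centred on the summit, from the RefSeq Release 6 genome, on the plus strand of dm6. They lie at chr2L:3771421-3771521 for bowl, chr2L:3583131-3583231 for sob, chr2L:3595299-3595399 for odd and chr2L:3549771-3549871 for drm. Capitals mark matches, on either strand, to any of 13 words searched, which are listed further on.
bowl: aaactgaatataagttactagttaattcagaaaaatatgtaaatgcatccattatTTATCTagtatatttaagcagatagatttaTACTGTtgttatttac
sob: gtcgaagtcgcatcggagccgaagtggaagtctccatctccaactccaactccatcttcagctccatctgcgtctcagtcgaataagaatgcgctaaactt
odd: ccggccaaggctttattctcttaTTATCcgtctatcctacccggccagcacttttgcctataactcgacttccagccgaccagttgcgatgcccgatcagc
drm: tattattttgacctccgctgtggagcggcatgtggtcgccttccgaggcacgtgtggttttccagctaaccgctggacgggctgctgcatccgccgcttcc

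The bowl window was rich in A and T, and the other 3 were not. A and T made up 78.2% of its bases, against 49.5% for sob, 46.5% for odd and 39.6% for drm. The mean was 61.6% over the 1421 thresholded windows of the main arms and 52.7% over all 147354 candidate windows there. Of the thresholded windows, 93.8% had a lower share of A and T than that of bowl. The contrast holds for the single window at each gene's highest region. Over all candidate regions of each gene the median share was 53.5% for bowl, 51.5% for sob, 54.5% for odd and 52.5% for drm.

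bowl and sob each had 1 pooled thresholded peak, and odd and drm had none. Over all protein-coding genes, 8.35% were nearest to at least 1 pooled thresholded peak. Of the family's 95 candidate regions, 2 (2.11%) passed the threshold, against 0.993% of all candidate regions, and since the lists themselves chose these regions nothing is read from the difference. A peak passed with a score of at least 830, on a scale that ends at 1000. This corresponds to an irreproducible discovery rate (IDR, an estimated share of irreproducible regions) of 1.00%. The lists of single replicates carry an IDR too, so it is not read here as the share that a repeat experiment would miss. The sob peak had a score of 972 and was the family region just inside the threshold. The region just outside it belonged to odd, with a score of 773, and the next one belonged to sob, with 581.

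The bowl peak was the highest of the family. It ran from 3771303 to 3771638, with its summit 229 bp upstream of the first start site of bowl. Its pooled signal value, the authors' own peak height, was 154, which put it at rank 275 of 1495 thresholded peaks and gave it an IDR of 0.0487%. In replicate 1 the candidate region at the same place had a signal value of 32.5, rank 1050 of 101890, a score of 547 and an IDR of 4.79%. In replicate 2 it had 122, rank 215 of 136956, a score of 1000 and an IDR of 0.0326%. The region was thus in the upper part of both ranked lists, but it was a thresholded peak in replicate 2 only. It was also the family's single peak in the submitters' conservative list, where it had rank 259 of 771. That list named 4.56% of protein-coding genes. The next start site of any other gene was 1017 bp away and belonged to the non-coding gene lncRNA:CR43704. The nearest other protein-coding one was that of CG43707, at 5162 bp.

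Between the bowl window and the first start site lie 178 further bases, at chr2L:3771522-3771699 on the plus strand. They are shown because they lead from the window to the start of transcription. The peak itself runs on into them, as far as 3771638.
bowl upstream: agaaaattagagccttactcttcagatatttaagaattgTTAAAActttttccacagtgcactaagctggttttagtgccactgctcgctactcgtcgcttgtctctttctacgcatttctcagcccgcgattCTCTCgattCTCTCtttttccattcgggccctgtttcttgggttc
This stretch was less rich in A and T, at 56.7%, than the window at the summit. It held TTAAAA once, and GAGAG on the other strand in 2 places, which began 45 and 36 bases before the start site.

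The sob peak lay away from every promoter. It ran from 3583013 to 3583348, between genes, with its summit 2412 bp upstream of the sob start site and 4288 bp from that of lncRNA:TS2. The pooled signal value was 74.5, rank 1064 of 1495, with an IDR of 0.455%. Replicate 1 had 30.5 at this place, rank 1257 and a score of 620, and replicate 2 had 40.8, rank 3107 and a score of 505. Both replicates thus held a candidate region here and in neither was it a thresholded peak. It was absent from the conservative list.

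odd had no pooled thresholded peak, but it had the family's single thresholded peak of replicate 1, a list that named 2.82% of protein-coding genes and held 0.506% of the candidate regions of that replicate. This peak ran from 3595174 to 3595469, with a signal value of 42.2, a score of 927 and rank 421 of 516. The pooled region at the same place, from 3595181 to 3595516, had a signal value of 67.9, rank 1700 of 150585 and an IDR of 1.37%. In replicate 2 the region there had 24.6, rank 27095 of 136956, and a score of 154. The region was thus higher than 99.4% of the candidate regions of replicate 1 and higher than 80.2% of those of replicate 2. It lies between sob and odd, 8875 bp beyond the 3′ end of odd. The start site of lncRNA:CR43823 is closer, at 5048 bp, than that of odd, at 11407 bp, so the assignment to odd rests on counting protein-coding start sites alone.

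The second region of odd lay inside the gene, in an exon 942 bp downstream of the start site, with a pooled signal value of 60.8 and a score of 464. It had 22.3 in replicate 1 and 37.6 in replicate 2, at ranks 4996 and 4568, so the ranks of the 2 replicates were close. The highest region at the odd promoter, 363 bp upstream of the start site, had a pooled value of 44.3. It had 6.08 in replicate 1 and 39.6 in replicate 2, and was the highest region of odd in the list of replicate 2.

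drm had the lowest maximum of the 4 genes in every list. Its highest pooled region had a signal value of 46.7, rank 9289 of 150585, and an IDR of 15.4%. This region lay 1398 bp beyond the 3′ end of the gene and 10088 bp from its nearest start site, with 19.2 in replicate 1 and 24.3 in replicate 2. The second, inside the gene, had a pooled value of 46.6, so that no drm region stood out from the rest. At the promoter, 5 bp upstream of a start site, the pooled value was 34.0, replicate 2 had 25.4, and replicate 1 had no candidate region over the summit.

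**Figure D1:**
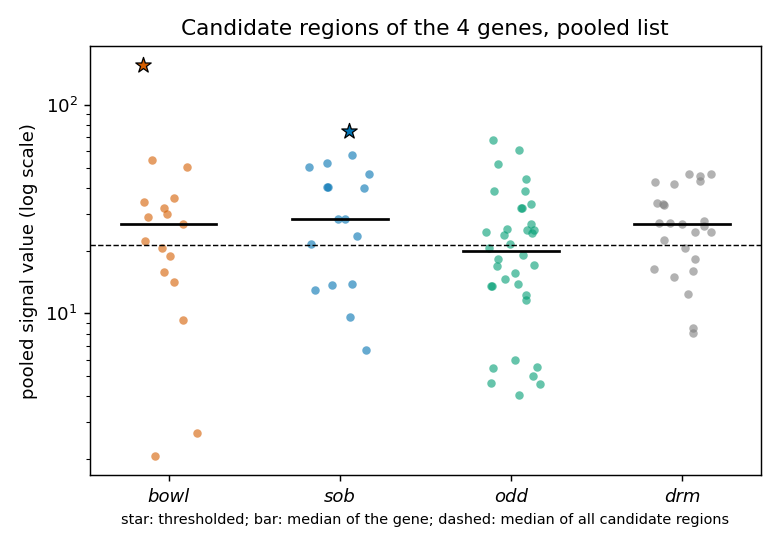
Pooled signal value (log scale) of each of the 95 candidate regions of bowl, sob, odd and drm; each point is 1 region, stars are thresholded peaks, the bar is the median of the gene and the dashed line the median of all pooled candidate regions. The bowl peak at 154 stands above all others, while the medians of the genes lie close to each other and to the dashed line.

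In the pooled list the 4 genes differed in how far their highest region stood above the rest, and much less in the level of the rest. The highest region of bowl was 2.86 times the second in pooled signal value, that of sob 1.30 times, that of odd 1.12 times and that of drm 1.00 times. In replicate 2 the highest and second values were 122 and 45.9 for bowl, 40.8 and 37.7 for sob, and 39.6 and 37.6 for odd. For drm they were 34.4 and 28.8. In replicate 1 bowl did not stand apart, with 32.5 and 20.8, beside 30.5 and 19.7 for sob and 42.2 and 26.7 for odd. There drm had 23.5 and 19.8. The median pooled signal value was 28.5 over the 17 regions of sob, 26.9 over the 25 of drm, 26.7 over the 17 of bowl and 19.8 over the 36 of odd. Over the family it was 24.7, with a range of 2.07 to 154, against 21.4 over all pooled candidate regions. Of the 95 regions, 17 (17.9%) were higher than 90% of all pooled candidate regions. These 17 were spread over the genes, with 5 in sob, 5 in drm, 4 in odd and 3 in bowl. At an IDR of 5% or less there were 7 family regions (7.37%), against 2.64% of all candidate regions. They included a pair of overlapping bowl regions, each with a score of 548, at pooled values of 50.2 and 9.34. Nothing is read from this difference in share either.

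The order of the genes changed between the replicates. In the pooled list the highest regions came in the order bowl, sob, odd and drm, at 154, 74.5, 67.9 and 46.7. In replicate 2 the order was the same, at 122, 40.8, 39.6 and 34.4, with sob, odd and drm close together. In replicate 1 odd came first with 42.2, followed by bowl with 32.5, sob with 30.5 and drm with 23.5. bowl thus led by a wide margin in replicate 2, whose thresholded list named 6.38% of protein-coding genes and held 0.767% of its candidate regions, and not in replicate 1. With 2 replicates there is no spread against which these gaps could be set, and nothing states that the signal values of both share a scale.

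**Figure D2:**
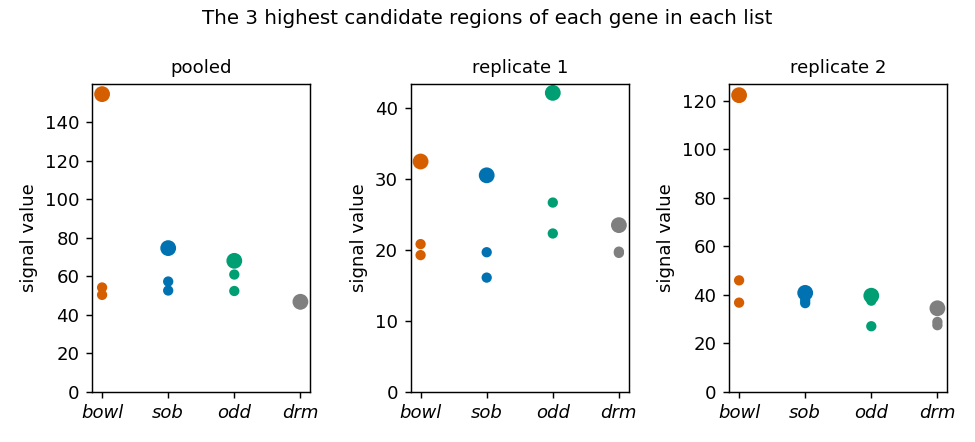
Signal values of the 3 highest candidate regions of each gene in the pooled list and in the list of each replicate, each panel with its own axis from 0; the large point is the highest. bowl leads in the pooled list and in replicate 2, odd leads in replicate 1, and drm is the lowest of the 4 in all 3 lists.

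Over the whole family the heights of the 2 replicates showed little relation. A candidate region covered the pooled summit in both replicates at 47 of the 95 regions (49.5%, against 40.6% of all pooled candidate regions), in replicate 2 only at 33, in replicate 1 only at 7 and in neither at 8. Over the 47 regions Spearman's rank correlation was 0.060, and -0.000864 without the bowl peak. Pearson's r of the log2 values was 0.098. Over the 61115 pooled regions of the genome with a value in both, the correlations were 0.257 and 0.299. These are correlations across regions of the same 2 libraries, some of which overlap one another (21 of the 95 overlapped the region before), and are given as a description. Some replicate regions covered more than 1 pooled summit, so their values enter more than once. At 2 overlapping regions of odd, for example, both values were the same, 6.08 in replicate 1 and 39.6 in replicate 2. Replicate 2 had the higher value at 33 of the 47 regions (70.2%), against 77.5% of all such regions. The median ratio of replicate 2 to replicate 1 was 1.62 over the 47 regions and 1.58 over all.

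**Figure D3:**
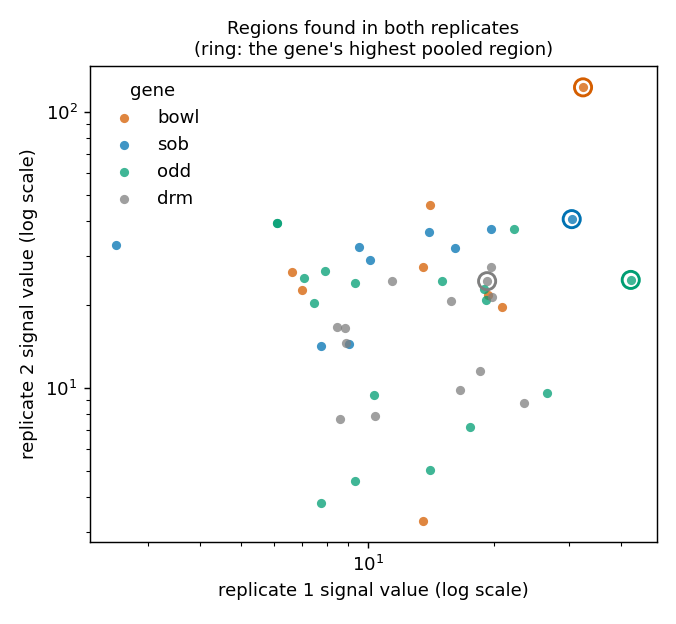
Signal value in replicate 2 against replicate 1 (both on log scales) for the 47 family regions with a candidate region in both; colours are genes and a ring marks the highest pooled region of each gene. bowl's ringed point lies high in replicate 2 at 122 against 32.5 in replicate 1, and odd's lies far to the right at 42.2 in replicate 1 against 24.6 in replicate 2.

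The genes held many candidate regions, most of them between genes. odd had 36, more than 94.0% of protein-coding genes, drm 25, more than 89.4%, and sob and bowl 17 each, more than 82.6%. The median gene had 5. These are counts of the ranked list before any threshold. Many of the family's regions had a score of 48, its lowest, which is an IDR of 76.4%. Only 7 of the 95 (7.37%, against 2.64% of all candidate regions) had an IDR of 5% or less. Counted over the DNA nearest to its start sites, odd had 18.8 regions per 10 kb, bowl 13.1, sob 11.1 and drm 10.9, against 11.1 over the whole of chromosome arm 2L. Between genes lay 52 of the 95 regions (54.7%), against 22.9% of all candidate regions on the main arms, and 12 (12.6%) lay within 500 bp of any annotated start site, against 16.0%. Introns held 16 (16.8%, against 36.3% of all candidate regions on the main arms), exons 10 (10.5%, against 20.7%) and untranslated regions 5 (5.26%, against 4.06%). All 10 regions of bowl that were not in a promoter, exon or untranslated region were intronic, while odd had 30 of its 36 regions between genes, sob 10 of 17 and drm 12 of 25.

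**Figure D4:**
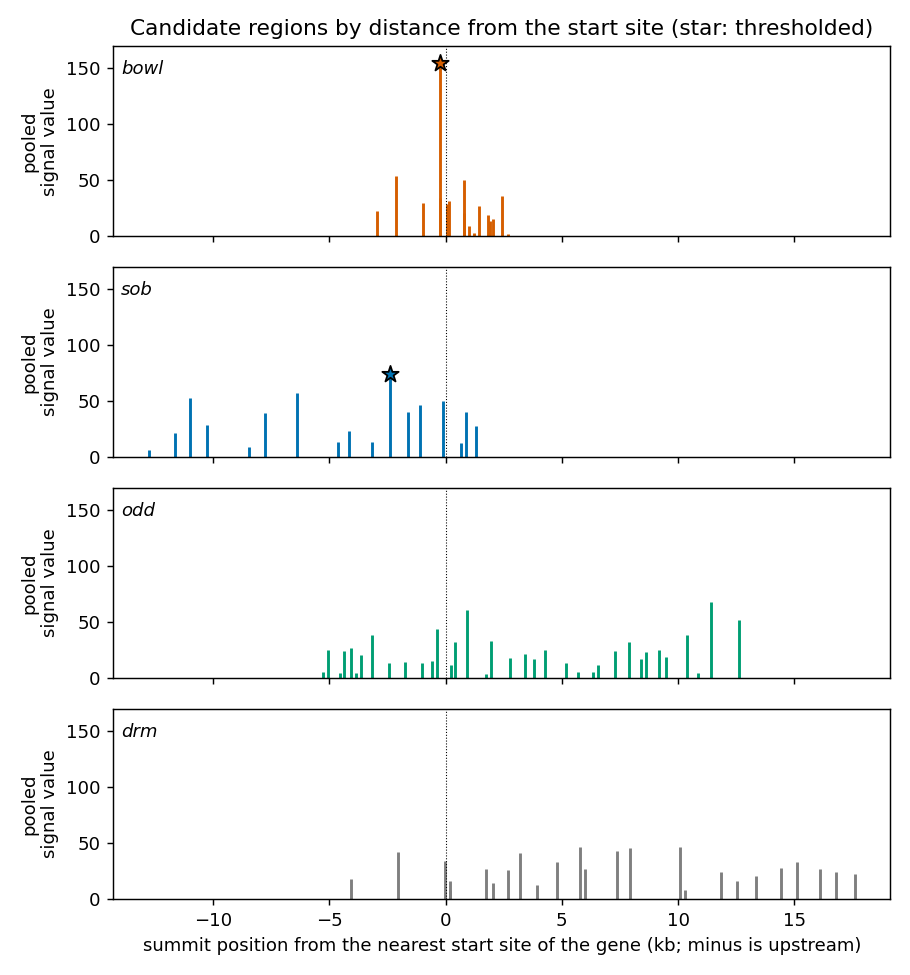
Pooled signal value of each candidate region against the distance of its summit from the nearest start site of its gene in kb, with upstream to the left and stars for thresholded peaks. The bowl peak stands just upstream of a start site, the sob peak 2412 bp upstream, and the highest odd region lies 11407 bp downstream of the start site, beyond the end of that gene.

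In the pooled list the promoters came in the same order as the genes. The highest region within 500 bp of a gene's own start site had a pooled value of 154 for bowl, 50.4 for sob (124 bp upstream), 44.3 for odd and 34.0 for drm. In the list of replicate 2 these regions had values of 122, 32.2, 39.6 and 25.4. In replicate 1 they had 32.5 for bowl, 9.53 for sob and 6.08 for odd. The promoters of sob, odd and drm were thus all lower than that of bowl wherever a value existed. The stretch between sob and odd held 32 regions, 13.6 per 10 kb, of which 7 were above 90% of all candidate regions, and with it 1 pooled thresholded peak, that of sob, and 1 of replicate 1, that assigned to odd. Another region there, in lncRNA:TS2, was the second of sob, with a pooled value of 57.2, 19.7 in replicate 1 and 37.7 in replicate 2.

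In the single window at each gene's highest region the words were not the same for all 4 genes. None was shared by the 2 thresholded peaks. This does not extend to the other windows, since GATAA was in 6 windows of odd, 4 of bowl, 2 of drm and 2 of sob. Each of the 13 words was searched on both strands, and a match names no bound factor. The bowl window held the word AGATAA on the minus strand, beginning 5 bases after the summit, and with it the shorter word GATAA that lies within it. Farther from the summit, 35 bases after it, the bowl window also held ACAGTA on the minus strand. The odd window held GATAA alone of the words, 27 bases before the summit, and the sob and drm windows held no word of the 13. Over the 95 family windows GATAA was in 14 (14.7%), against 14.8% of all candidate windows and 20.3% of thresholded ones. The longer word AGATAA was in 4 family windows (4.21%), against 3.97% of all candidate windows and 6.62% of thresholded ones. A stretch of A and T, TTAAAA, was in 14 family windows (14.7%), against 10.01% of all candidate windows and 27.9% of thresholded ones. The repeat GAGAG was in 12 family windows (12.6%), against 12.6% of all candidate windows and 11.9% of thresholded ones. The palindrome CAGCTG was in 8 family windows (8.42%), against 5.81% of all candidate windows and 4.29% of thresholded ones. In 4 family windows (4.21%) there was ACAGTA, against 2.33% of all candidate windows and 3.59% of thresholded ones. The word CAGGTA was found in 2 family windows (2.11%), against 2.36% of all candidate windows. In a single family window (1.05%), of a sob region, there was CAGTAGC, against 0.996% of all candidate windows. The words with no match in any family window were 5 in number, and each was rare over all candidate windows. The first of these, GACAAGATA, was in 0.0299% of all candidate windows, and the second, of equal length, GAAGATGAG, was in 0.105%. Of a further pair without a match, TGACTCA was in 0.769% of all candidate windows and, as a palindrome, the longer TATCGATA was in 0.202%. The last of the words without a match, GGTCACACT, was in 0.0909% of all candidate windows. With 100 bp on either side of the summit, TGACTCA was in 2 family windows (2.11%), against 1.59% of all candidate windows.

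Some genes listed for the processes in which the family takes part also had pooled thresholded peaks. Of 44 genes of the Drm and Lines pathway with gut patterning, of segmentation, and of the leg joint and appendage, 7 had at least 1 (15.9%), against 8.35% of protein-coding genes. The lists were chosen with results of these data known, so the share supports nothing. Of the 20 pathway and gut genes 4 had a peak, namely gro (196), which encodes the corepressor Groucho, fkh (104), a forkhead gene of the gut, hth (99.96, the highest of its 4 peaks), a homeobox cofactor gene, and GATAe (93.1), an endoderm GATA factor gene. lin, which encodes Lines, was among those with none that passed, as were byn, N, Ser, Delta, hh, wg and ptc. Of the 16 segmentation genes 2 had a peak, hry (80.4, the higher of its 2 peaks), a pair-rule repressor gene, and slp2 (74.4), a forkhead pair-rule gene. The highest peak of neither overlapped a thresholded peak of a replicate. Of the 14 leg genes 1 had a peak, Dll (194), which encodes the homeodomain protein Distal-less, and its summit lay 109 bp upstream of a start site. The median of the highest region per gene was 52.8 over those of the 44 genes that had a region (ci had none) and 43.1 over all protein-coding genes with a region. The highest regions of bowl, sob and odd were above that median of 52.8, and that of drm was below it. The highest value is taken over unequal numbers of regions. Most list genes held more than the median of 5 per protein-coding gene, up to 136 for hth. Nothing is read from the difference between the 2 medians.

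By height, the main-arm peaks closest to that of bowl were nearest to Raf (155), CG12093 (155), prage (155), sls (154) and Xe7 (154). Those closest to that of sob were nearest to Alh (74.7), alpha-Cat (74.6), Ttc30 (74.6), Zfrp8 (74.5) and GILT2 (74.5). The bowl peak was number 263 and the sob peak number 1011 of 1421.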

How the data were processed

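Chromatin immunoprecipitation sequencing was done in 2 biological replicates of 1 group, and only peak lists were used. The peaks were called on dm6 and ranked by IDR, per the deposited file descriptions; no source used here names the aligner, the peak caller, its settings or the control. The signal value of a peak and its score are the authors' values as deposited. The −log10 of the IDR was read from the deposited ranked lists, and the score followed a fixed multiple of the −log2 of the IDR, ended at 1000, to within 1 in all 150585 pooled rows. In all, 169 rows that reached 830 were not in the thresholded list, none of the family's among them. Read depth is unknown, so no interval is given. Every family region had the same width, 336 bp in the pooled list, 296 bp in replicate 1 and 300 bp in replicate 2.

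Gene models came from Ensembl release 115 (BDGP6.54) and bases from RefSeq Release 6; no peak ended beyond its arm. A pooled region was given the height of the replicate region that held its summit. Words were searched in 50 bp on either side of the summit. Python 3.11.15, pandas 2.3.3 and scipy 1.17.1 were used, and the nearest-gene and word steps were checked on simulated data. The members and lists were chosen with earlier results of these data known. Named are the 4 genes, list genes with a peak (and some without one, with no value), neighbouring genes and the 5 peaks closest in rank to those of bowl and sob. Delta stood in the lists as Dl and was matched to the spelling of the annotation after the files were seen. Protein sequences were not used here.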

Additional observations from a re-analysis of the deposited data

How the results depend on the processing

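The family had 2 pooled thresholded peaks in 2 genes with every summit given to the nearest start site of any gene, with a 5 kb limit, and with all ranked rows that reached the score minimum. It had 1 peak in 1 gene (bowl) in the conservative list, among peaks of the maximum score, with summits given to gene bodies within 1 kb, and without replicate 1. Without replicate 2 it also had 1, that of odd. Of the 2 peaks 1 was shared with a replicate at an overlap of 1 bp, of 50% of each peak, or by summit, and 2 were with any candidate region. The highest family peak was 42.2 and 122 in the lists of single replicates. GATAA was in 1 of the 2 windows at each window size. Of the 44 listed pathway, segmentation and leg genes, 2 had a peak in the conservative list, and from 1 to 6 did in the lists of single replicates. Candidate regions numbered 62 to 93 in single replicates, a comparison added after the data were seen. The cause of these shifts was not tested. The depth of the libraries is unknown. No paired analysis was possible because there is a single group. The protein identity of the 4 genes was not run.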

Other observations

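Thresholded peaks of other genes lay in the stretch between odd and bowl and just beyond. for, which encodes a cyclic GMP-dependent protein kinase, had pooled peaks of 245 and 140, CG2816 had 72.4, and Reph, beyond bowl, had 114.9. Of these 4 peaks, 3 were higher than that of sob and 1 was higher than that of bowl. slp2, a pair-rule gene further along the arm, had its peak of 74.4 at a summit 4307 bp upstream of its start site. The highest region in the stretch between drm and sob had a pooled value of 65.5, was nearest to CG43815 and was not a thresholded peak.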
